A study of Homo sapiens with 6 samples.

Results

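The G2/M and mitosis genes described here are 40 named human genes, taken by symbol from a count table of 58721 genes. They comprise mitotic cyclins and kinases, checkpoint genes, kinesins, kinetochore genes and spindle and cytokinesis genes. They were listed by function, with earlier results of these data known, and all 40 were found. RNA was sequenced from A375, an established human melanoma cell line bought from ATCC and grown in DMEM with fetal bovine serum. A guide RNA against mCherry, a fluorescent protein gene foreign to human cells, had been given to the 3 control libraries (genotype WT), and a guide RNA against SOX10, a neural crest and melanocyte transcription factor, to the 3 knockout libraries (genotype SOX10 knockout). The sources used here do not give the guide's cut site or say if knockout cells came from 1 clone. Nor do they call the replicates separate cultures, so each p-value rests on library-to-library spread that may be technical.

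Cells pass from G2 into mitosis when CDK1, bound to cyclin A or B, is activated by a CDC25 phosphatase. Polo and Aurora kinases then build the spindle, kinesins move its microtubules and chromosomes, kinetochores attach the chromosomes, and the spindle checkpoint holds back the anaphase promoting complex until attachment is complete. Most of these genes are transcribed periodically, with a peak in G2 and M, under the MuvB complex, B-MYB and FOXM1, and MKI67 and TOP2A are widely used as markers of proliferating tumour cells, melanoma included.

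The label of the knockout was checked first. SOX10 stood at 241, 237 and 223 CPM in the control and 47.2, 47.8 and 41.5 CPM in the knockout libraries, here and below in the order of replicates 1, 2 and 3 (log2 fold change -2.36, SE 0.08, adjusted p = 1.84e-07 in edgeR's quasi-likelihood test with Benjamini-Hochberg adjustment). CPM is a count scaled to the TMM-adjusted library size, and SE is the standard error of the log2 fold change. The knockout libraries held 20.2%, 20.4% and 17.7% of the control mean, and the exact two-sided permutation test of log2 CPM, which has 20 assignments, returned its minimum of p = 0.1. Library totals were 70075002 to 78148565 counts, and each of the 40 genes had between 591 and 75368 counts in every library, so none was near the floor of 3 counts. Of 7 tested melanocyte markers 3 fell (SOX10 itself, S100B and DCT) and 2 rose (MITF and TYRP1), while TYR was under 0.1 CPM in all libraries. The 8 markers of that lineage summed to 319 to 333 CPM in control libraries against 180.0 to 191 CPM after knockout, and without SOX10 to 92 to 95.6 against 139 to 143 CPM. Fibroblast markers rose in 7 of 10 cases and fell in 1, with a sum of 16.8 to 20.1 CPM in control libraries against 28.1 to 30.3 CPM after knockout. Of 5 tested epithelial markers 4 rose and 1 fell (sums 173 to 181 and 231 to 244 CPM), of 3 tested endothelial markers 2 rose and 1 fell (6.09 to 8.33 and 3.10 to 3.67 CPM), and of 2 tested immune markers 1 fell. CDH1, KRT19, CLDN5 and CD3E were under 0.1 CPM throughout, and the part of these markers in the results on mitotic genes was not tested.

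Most of the mitotic genes had lower means in knockout libraries, with log2 fold changes no lower than -0.53. All 40 passed the filter on low counts, and 16 of them (40%) fell in edgeR's test at an adjusted p of 0.05, while 0 rose; of all 19263 tested genes, 14.0% fell and 14.0% rose. At an unadjusted p under 0.05, 24 were lower and 0 higher, for which no share of all genes is given. DESeq2 called 19 lower and 0 higher, beside 2789 lower and 2954 higher of all 19263 genes. The 40 genes were all protein-coding and all but PRC1 averaged 10 CPM or more, and of the 8890 tested genes of that class 16.4% fell. The log2 fold change was below 0 for 39 of 40 genes, against 52.2% of all tested genes, and its median was -0.24, against -0.02 for all tested genes. Values ran from -0.53 for KIF20A to 0.08 for KIF20B. For 24 of the 40, every knockout library lay below every control library, which held for 21.5% of all tested genes; for 0 of the 40 did every knockout library lie above. The number called was 6 without knockout replicate 2 and 9 without control replicate 2. Of all genes, 1794 and 1811 were lower in those fits, against 2702 with all libraries. With a term for the replicate number 35 fell and 1 rose, beside 5176 lower and 4637 higher of all 19263 genes. The numbers were not taken to pair the samples, though pairing was not excluded. In these bulk samples, fewer cells in G2 and M and less of each RNA per cell cannot be told apart.

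Together the 40 genes held 0.935%, 0.914% and 0.872% of all counts in the control libraries; in the knockout libraries they held 0.801%, 0.786% and 0.770%. The groups did not overlap, and replicate 3 had the lowest share in both. Relative to the control mean, the median of the 40 genes on the log2(CPM + 0.5) scale was -0.26, -0.23 and -0.21 in the knockout libraries and -0.04, -0.01 and 0.05 in the control libraries.

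**Figure D1:**
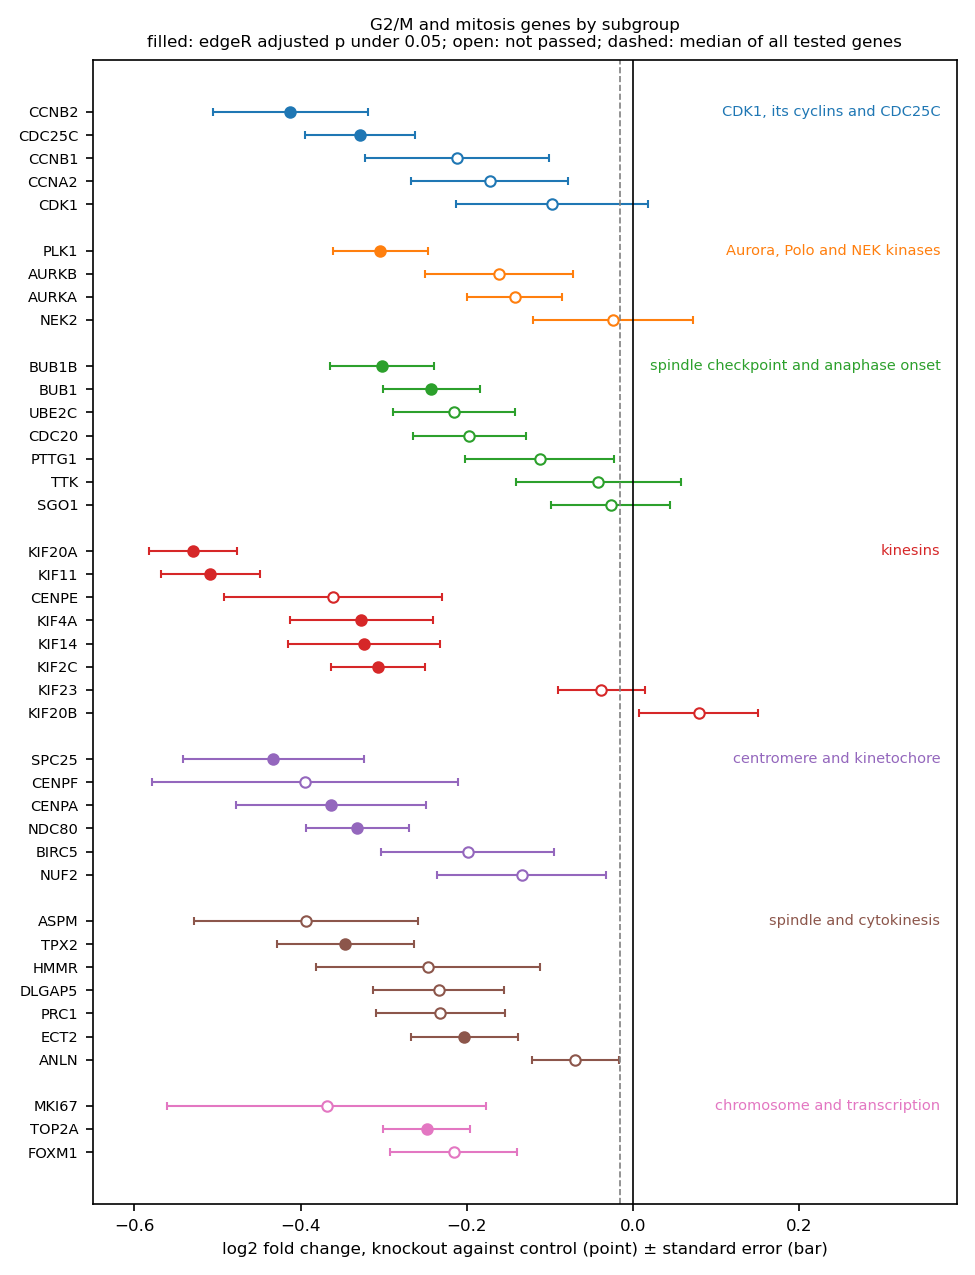
Log2 fold change of each mitotic gene, knockout against control (point), with its standard error (bar), by subgroup; filled points passed an adjusted p of 0.05. The points lie left of 0 for 39 genes and right of it for KIF20B, and the dashed line at -0.02 is the median of all tested genes.

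No test compared the subgroups, which hold 3 to 8 genes each. Their median log2 fold changes were -0.35 for centromere and kinetochore genes (3 of 6 fell), -0.33 for kinesins (5 of 8), -0.25 for the 3 chromosome and transcription genes (1 fell), -0.23 for spindle and cytokinesis genes (2 of 7), -0.21 for CDK1, its cyclins and CDC25C (2 of 5), -0.20 for spindle checkpoint and anaphase genes (2 of 7) and -0.15 for Aurora, Polo and NEK kinases (1 of 4). Kinesins spanned the widest range, holding both the largest decrease and the single positive value. The 6 genes KIF20A, KIF11, KIF2C, NDC80, PLK1 and CDC25C passed the threshold in each of 13 alternative fits without a replicate term, and the other 10 of the 16 lost it in at least 1 of them.

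Promoters of these genes are known for the cell cycle homology region, CHR, a short element bound by MuvB, often with CCAAT boxes bound by NF-Y upstream. RefSeq windows (GRCh38.p14, 250 bases before to 50 after a transcription start) were matched by symbol for 34 of the 40 genes, some with several starts. The letters TTTGAA or TTCGAA on either strand were searched for CHR, and CCAAT on either strand for the CCAAT box. Matches of both motifs can overlap. Other forms of CHR were not searched, so a gene counted as without a match may hold one. A CHR match was held by 26 of 34 genes (76.5%), against 16.2% of 12273 tested genes with a window and 16.4% of all 35116 windows. CCAAT was held by 28 of 34 (82.4%), against 43.2% of tested genes and 34.6% of all windows, and both by 22 of 34 (64.7%), against 6.84% and 6.38%. A CHR match starting within 50 bases of the start was held by 22 of 34, against 5.07% of tested genes and 5.01% of all windows. Genes with a CHR match had a median log2 fold change of -0.27 and 13 of 26 fell; the 8 without one had -0.19 and 2 fell. For CCAAT the order was the opposite: the 28 genes with a match had -0.24 and 12 fell, and the 6 without had -0.30 and 3 fell. Neither split was tested. A match is a description of the letters and not evidence of binding.

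The sites below show the CHR match nearest to a start in genes that fell, in 30 bases on the strand of the gene, with the match in capitals, so that the shared letters and their different surroundings can be compared. TTCAAA is the match TTTGAA read on the other strand, and KIF11 follows below in a longer stretch.
CCNB2 (chr15:59105105-59105134, plus strand): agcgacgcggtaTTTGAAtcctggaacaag
CDC25C (chr5:138331817-138331846, minus strand): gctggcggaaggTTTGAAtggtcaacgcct
PLK1 (chr16:23678848-23678877, plus strand): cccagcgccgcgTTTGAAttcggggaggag
BUB1 (chr2:110678045-110678074, minus strand): ctgcgcggggtaTTCGAAtcggcggcggct
BUB1B (chr15:40161034-40161063, plus strand): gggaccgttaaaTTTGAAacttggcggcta
KIF4A (chrX:70290058-70290087, plus strand): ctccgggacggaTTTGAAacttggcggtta
KIF14 (chr1:200620733-200620762, minus strand): gcggggcgcccaTTCAAAttgcggccttct
CENPA (chr2:26786026-26786055, plus strand): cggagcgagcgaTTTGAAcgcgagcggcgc
NDC80 (chr18:2571542-2571571, plus strand): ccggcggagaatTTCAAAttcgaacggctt
SPC25 (chr2:168890416-168890445, minus strand): aagtgcactaggTTTGAAatcggaaagttg
ECT2 (chr3:172750746-172750775, plus strand): agagcagcttagttTTTGAAtcggttgtgg
TOP2A (chr17:40418030-40418059, minus strand): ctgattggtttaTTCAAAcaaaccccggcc
In CCNB2, CDC25C and PLK1 the match began at -29, -30 and -29, counted from the base before the start as -1, and in BUB1B and KIF4A at -23 and -34. BUB1 has the form TTCGAA, which reads the same on both strands.

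Genes that did not pass the test can hold the same letters, and sites of 4 such genes are shown for comparison.
KIF23 (chr15:69414282-69414311, plus strand): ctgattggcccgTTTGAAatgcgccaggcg
SGO1 (chr3:20186192-20186221, minus strand): gaggcggaaaatTTCGAAtgtggcggcggt
ANLN (chr7:36389830-36389859, plus strand): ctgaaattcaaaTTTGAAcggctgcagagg
NUF2 (chr1:163321958-163321987, plus strand): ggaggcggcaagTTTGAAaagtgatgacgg

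The 100 bases before the start are shown for KIF11, with the second largest decrease, and for MKI67, which missed the threshold; CHR and CCAAT matches on either strand are in capitals, and neither stretch overlaps an exon of GENCODE 29.
KIF11 (chr10:92593030-92593129, plus strand): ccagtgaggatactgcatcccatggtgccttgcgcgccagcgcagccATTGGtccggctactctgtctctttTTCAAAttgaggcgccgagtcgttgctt
MKI67 (chr10:128126424-128126523, minus strand): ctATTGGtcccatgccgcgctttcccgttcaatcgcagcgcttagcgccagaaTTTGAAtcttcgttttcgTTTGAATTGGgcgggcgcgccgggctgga
KIF11 holds an inverted CCAAT box and an inverted CHR. MKI67 holds a pair of CHR matches, the nearer one running into an inverted CCAAT box, and another inverted CCAAT box near its 5′ end. KIF20A, the gene with the largest decrease, has inverted CCAAT boxes at -94 and -67. Neither TTTGAA nor TTCGAA occurs on either strand of its window, and other forms of CHR were not searched.

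The regulators that open mitosis were examined first. CDC25C, the phosphatase that activates CDK1 (ENSG00000158402; chromosome 5, 138285265 to 138338355, minus strand; coordinates here and below are GRCh38), stood at 19.1, 19.1 and 19.8 CPM in the control and 14.6, 15.7 and 15.9 CPM in the knockout libraries. All knockout libraries were below all control libraries, and the mean fell by 20.3% (log2 fold change -0.33, SE 0.07, adjusted p = 0.00629). CCNB2, a B-type cyclin of CDK1, stood at 139, 151 and 173 CPM in the control and 108, 116 and 125 CPM in the knockout libraries. Its knockout libraries also lay below every control library, although the control libraries differed among themselves (log2 fold change -0.41, SE 0.09, adjusted p = 0.0111); without knockout replicate 2 the adjusted p was 0.0517. CCNB1, the main mitotic cyclin and per kilobase of exon the most abundant of the 40 genes (219.7 CPM per kilobase in control libraries), stood at 495, 544 and 647 CPM in the control and 435, 488 and 532 CPM in the knockout libraries. Knockout replicate 3 exceeded control replicate 1, so the groups overlapped, and the gene did not pass (log2 fold change -0.21, 95% interval -0.47 to 0.04, adjusted p = 0.206). CDK1 itself, the kinase of these cyclins, stood at 209, 223 and 268 CPM in the control and 192, 217 and 245 CPM in the knockout libraries and did not pass either (log2 fold change -0.10, 95% interval -0.36 to 0.17, adjusted p = 0.602). CCNA2, the cyclin of S phase and G2, had a log2 fold change of -0.17 (adjusted p = 0.228). FAM53C, on the opposite strand, overlaps exons of CDC25C and fell too (log2 fold change -0.28, adjusted p = 0.00603), and without knowing the strand setting used by HTSeq, their reads cannot be told apart for certain.

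Of the kinases, PLK1, which drives centrosome maturation and spindle assembly (ENSG00000166851; chromosome 16, 23677656 to 23690367, plus strand), fell. It stood at 172, 182 and 180.0 CPM in the control and 147, 147 and 139 CPM in the knockout libraries and fell by 19.0% (log2 fold change -0.30, SE 0.06, adjusted p = 0.00442). The knockout libraries were closely grouped and did not overlap the control libraries. AURKA, the centrosomal Aurora kinase, stood at 248, 254 and 262 CPM in the control and 222, 234 and 236 CPM in the knockout libraries. Its groups did not overlap, yet the difference of -9.40% missed the threshold (log2 fold change -0.14, SE 0.06, adjusted p = 0.103). AURKB, the Aurora kinase of the chromosomal passenger complex, stood at 78.6, 88.7 and 95.7 CPM in the control and 72.4, 78.5 and 84.3 CPM in the knockout libraries (log2 fold change -0.16, 95% interval -0.37 to 0.04, adjusted p = 0.230). NEK2, a centrosome-separating kinase, showed 88.7, 93.0 and 108 CPM in the control and 85.7, 95.1 and 104 CPM in the knockout libraries with overlapping groups (log2 fold change -0.02, 95% interval -0.24 to 0.20, adjusted p = 0.888).

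Of 7 checkpoint and anaphase genes BUB1B and BUB1 fell. BUB1B, whose product BubR1 inhibits the anaphase promoting complex (ENSG00000156970; chromosome 15, 40161023 to 40221136, plus strand), stood at 153, 144 and 138 CPM in the control and 122, 118 and 113 CPM in the knockout libraries and fell by 18.9% (log2 fold change -0.30, SE 0.06, adjusted p = 0.00744). BUB1, the kinetochore kinase of the same checkpoint, stood at 147, 147 and 155 CPM in the control and 122, 129 and 129 CPM in the knockout libraries and fell (log2 fold change -0.24, SE 0.06, adjusted p = 0.0150). For both genes every knockout library was below every control library. Without knockout replicate 2 the adjusted p was 0.0521 for BUB1B, and BUB1 was lost without that library, without knockout replicate 1 or without control replicate 2, with an adjusted p of up to 0.0681. UBE2C, the ubiquitin-conjugating enzyme of the anaphase promoting complex, stood at 129.9, 145 and 149.6 CPM in the control and 115, 123 and 128 CPM in the knockout libraries, without overlap between groups but short of the threshold (log2 fold change -0.22, SE 0.07, adjusted p = 0.0610). CDC20, the activator of that complex, also missed it (log2 fold change -0.20, SE 0.07, adjusted p = 0.0646). SGO1, the shugoshin that protects centromeric cohesion, stood at 36.7, 38.0 and 42.2 CPM in the control and 37.0, 38.3 and 39.4 CPM in the knockout libraries (log2 fold change -0.03, 95% interval -0.19 to 0.14, adjusted p = 0.830), and its libraries overlapped. TTK, the kinase MPS1 at the top of the checkpoint, had a log2 fold change of -0.04 (adjusted p = 0.806) and PTTG1, securin, -0.11 (adjusted p = 0.419). PTTG1, CDC20, UBE2C, BUB1 and SGO1 have pseudogene copies by name, with which reads may be shared. How alike their sequences are was not measured. The copy CDC20P1 had 1508 counts over the 6 libraries, the most of these copies. Among the kinases, AURKA and NEK2 have such copies too, with 50 to 118 counts each.

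Kinesins gave the largest decreases. KIF20A, the kinesin that carries Polo and Aurora B to the central spindle (ENSG00000112984; chromosome 5, 138178719 to 138187715, plus strand), stood at 204, 212 and 207 CPM in the control and 143, 145 and 145 CPM in the knockout libraries. The mean fell by 30.7% (log2 fold change -0.53, SE 0.05, adjusted p = 1.12e-04) with tightly grouped libraries on both sides. KIF11, the Eg5 motor that pushes spindle poles apart (ENSG00000138160; chromosome 10, 92593286 to 92655395, plus strand), stood at 423, 411 and 391 CPM in the control and 294, 291 and 276 CPM in the knockout libraries and fell by 29.7% (log2 fold change -0.51, SE 0.06, adjusted p = 3.00e-04). KIF2C, the microtubule depolymerase MCAK, stood at 148, 146 and 139 CPM in the control and 119, 117 and 114 CPM in the knockout libraries and fell (log2 fold change -0.31, SE 0.06, adjusted p = 0.00408). In all of these the groups were separated by more than their own spread. KIF4A, a chromosome-arm motor, and KIF14, a cytokinesis motor, fell as well (log2 fold changes -0.33 and -0.32, adjusted p = 0.0228 and 0.0296). Both lost the call when scaled by total counts or without control replicate 1, control replicate 2, knockout replicate 2 or knockout replicate 3, which left 3 kinesins called in each case.

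KIF23, a motor of the central spindle like KIF20A, stood at 240.1, 239 and 241 CPM in the control and 229.6, 235 and 237 CPM in the knockout libraries. Every knockout library was below every control library, with a mean difference of -2.62%, and the test was not passed (log2 fold change -0.04, 95% interval -0.16 to 0.08, adjusted p = 0.654). KIF20B, a kinesin of late cytokinesis, was the single gene of the 40 with a higher mean in knockout libraries (224 ± 14.7 CPM over control and 236 ± 12.7 CPM over knockout libraries; log2 fold change 0.08, 95% interval -0.08 to 0.24, adjusted p = 0.478). CENPE, the kinesin that sits on kinetochores, was lower but variable (159.6 ± 26.0 CPM over control and 124 ± 15.1 CPM over knockout libraries; log2 fold change -0.36, SE 0.13, adjusted p = 0.0761). KIF20A overlaps exons of CDC23 and BRD8 on the opposite strand; CDC23 did not pass (log2 fold change -0.08, adjusted p = 0.316) and BRD8 fell (log2 fold change -0.36, adjusted p = 0.00116). KIF20A and CDC25C lie 97.5 kb apart on chromosome 5. KIF4A has a copy by name, KIF4B, with 483 counts over the 6 libraries. Exons of KIF4A also overlap PDZD11 on the opposite strand (20787 counts), which did not pass (log2 fold change -0.04, adjusted p = 0.721). Opposite-strand genes likewise overlap exons of CCNA2 (EXOSC9), FOXM1 (ITFG2) and ANLN (KIAA0895). These did not pass (adjusted p = 0.608, 0.165 and 0.353), and their reads cannot be told apart for certain either.

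**Figure D2:**
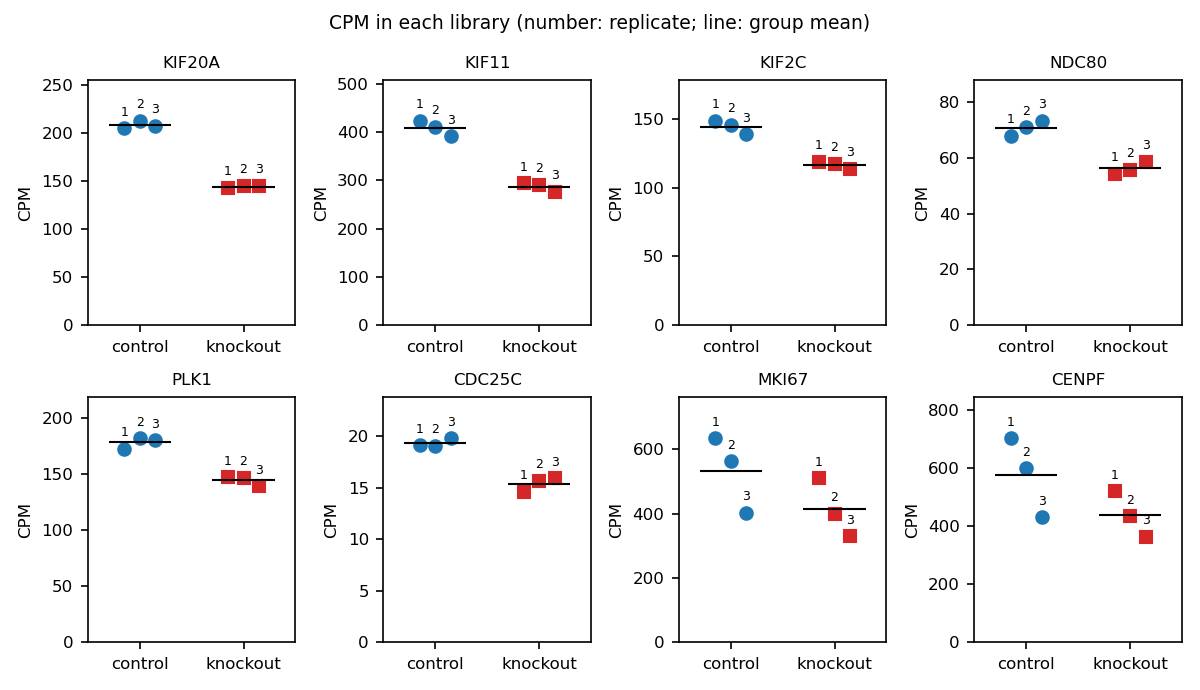
CPM in each library (numbers are replicates, lines are group means, axes start at 0) for the 6 genes called in every alternative fit without a replicate term and for MKI67 and CENPF. In the first 6 all knockout libraries lie below all control libraries, while in MKI67 and CENPF the groups overlap and replicate 3 is lowest in both groups.

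Of 6 centromere and kinetochore genes NDC80, SPC25 and CENPA fell. The median of this subgroup (-0.35) lay below that of kinesins (-0.33) with all libraries, but above it without control replicate 3 (-0.27 against -0.40) or knockout replicate 1 (-0.31 against -0.37), and without knockout replicate 2 both were -0.32. NDC80, the subunit of the NDC80 complex that grips microtubules (ENSG00000080986; chromosome 18, 2571511 to 2616635, plus strand), stood at 67.9, 71.0 and 73.2 CPM in the control and 54.2, 55.7 and 58.6 CPM in the knockout libraries and fell by 20.5% (log2 fold change -0.33, SE 0.06, adjusted p = 0.00417). SPC25, another subunit of that complex, stood at 21.9, 22.8 and 28.5 CPM in the control and 17.1, 17.7 and 19.4 CPM in the knockout libraries and fell (log2 fold change -0.43, SE 0.11, adjusted p = 0.0184). NUF2, the direct partner of NDC80, stood at 161, 165 and 201 CPM in the control and 146, 159.6 and 175 CPM in the knockout libraries, with overlapping groups and no call (log2 fold change -0.13, 95% interval -0.37 to 0.10, adjusted p = 0.388). Members of 1 complex gave different test results, but whether their changes differ was not tested. CENPA, the histone H3 variant of centromeres, stood at 35.4, 39.5 and 47.4 CPM in the control and 30.1, 29.97 and 35.0 CPM in the knockout libraries and fell (log2 fold change -0.36, SE 0.11, adjusted p = 0.0464), though it shares exons with SLC35F6 on the same strand (log2 fold change -0.24, adjusted p = 0.0552) and reads of both may be split. CENPF, a large kinetochore protein, stood at 703, 599 and 429.9 CPM in the control and 519.6, 435 and 363 CPM in the knockout libraries, a mean difference of -23.9% that did not pass (log2 fold change -0.39, 95% interval -0.82 to 0.03, adjusted p = 0.158). BIRC5, survivin of the chromosomal passenger complex, had a log2 fold change of -0.20 (adjusted p = 0.204). CENPA lost its call in 6 of the 13 alternative fits, among them those without control replicate 2 or 3 and without knockout replicate 1 or 2, with an adjusted p of up to 0.1696. SPC25 lost it without knockout replicate 1 or 2, with up to 0.0761.

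Among spindle and cytokinesis genes, TPX2, which activates Aurora A on spindle microtubules (ENSG00000088325; chromosome 20, 31739271 to 31801805, plus strand), stood at 475, 451 and 403 CPM in the control and 369, 357 and 320.4 CPM in the knockout libraries and fell by 21.3% (log2 fold change -0.35, SE 0.08, adjusted p = 0.0141). ECT2, the exchange factor that starts cytokinesis, stood at 239, 242 and 262 CPM in the control and 206, 215 and 225 CPM in the knockout libraries and passed narrowly (log2 fold change -0.20, SE 0.06, adjusted p = 0.0481). It kept the call in 2 of the 13 alternative fits, and TPX2 lost it without control replicate 1, control replicate 2 or knockout replicate 2. PRC1, the microtubule bundler of the midzone, was the least abundant of the 40 genes, at 9.76, 9.13 and 8.87 CPM in the control and 8.21, 7.69 and 7.74 CPM in the knockout libraries; it did not pass (log2 fold change -0.23, SE 0.08, adjusted p = 0.0573). It shares exons with the same-strand gene AC068831.7, so that reads assignable to both may have been left out of its count. ANLN, the anillin scaffold of the cleavage furrow, stood at 488, 483 and 489 CPM in the control and 462, 464 and 466 CPM in the knockout libraries. Every knockout library was below every control library by a small step, -4.69% on average, and the gene was not called (log2 fold change -0.07, 95% interval -0.19 to 0.05, adjusted p = 0.385). DLGAP5, a kinetochore fibre protein, and HMMR, a spindle and hyaluronan-binding protein, had log2 fold changes of -0.23 and -0.25 without a call (adjusted p = 0.0591 and 0.227). ASPM, a spindle pole protein, had -0.39 (adjusted p = 0.0619).

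The remaining genes were the proliferation marker MKI67, the DNA topoisomerase TOP2A and the transcription factor FOXM1. TOP2A, which untangles chromosomes before anaphase (ENSG00000131747; chromosome 17, 40388516 to 40417950, minus strand), was the most abundant of the 40 by count, at 1021, 1016 and 991 CPM in the control and 849.7, 852 and 848 CPM in the knockout libraries. It fell by 15.8% (log2 fold change -0.25, SE 0.05, adjusted p = 0.00809) with knockout libraries close to each other; the call was lost without control replicate 2 or knockout replicate 2, with an adjusted p of up to 0.0581. FOXM1, an activator of late cell cycle genes, stood at 169.7, 158 and 149 CPM in the control and 147, 136 and 127 CPM in the knockout libraries without overlap and short of the threshold (log2 fold change -0.22, SE 0.08, adjusted p = 0.0704); it passed without control replicate 3 or knockout replicate 1. MKI67, the gene of the Ki-67 protein, stood at 635, 563 and 402 CPM in the control and 510.4, 399 and 329.6 CPM in the knockout libraries. Its mean differed by -22.5%, but knockout replicate 1 exceeded control replicate 3, and the test was not passed (log2 fold change -0.37, 95% interval -0.81 to 0.07, adjusted p = 0.205). Without control replicate 3 MKI67 passed, with an adjusted p of 0.0277.

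Differences between replicates were ordered by gene length, and MKI67, CENPF, ASPM and CENPE, the longest of the 40 genes, all missed the threshold and all passed it without control replicate 3. Exon lengths of the 40 genes ran from 1286 bases (UBE2C) to 12807 bases (MKI67), counting all annotated exons of a gene once. In control libraries, log2 CPM in replicate 3 minus replicate 1 was -0.66 for MKI67, -0.71 for CENPF, -0.47 for ASPM and -0.47 for CENPE, and in knockout libraries it was -0.63, -0.52, -0.38 and -0.35. Short genes went the other way: of the 20 shortest, 18 were higher in replicate 3 than in replicate 1 in control and 18 in knockout libraries, with median differences of 0.28 and 0.20. Of the 20 longest, 8 and 7 were higher, with medians of -0.12 and -0.09. Over the 40 genes Pearson's r between log2 exon length and this difference was -0.79 in control and -0.73 in knockout libraries; over all 19263 tested genes it was -0.29 and -0.27. These are descriptions across genes that share their libraries, and genes are not independent replicates.

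The same 40 differences in control and in knockout libraries had r = 0.97. Between log2 exon length and the log2 fold change of knockout against control r was -0.11. In the 20 shortest genes 7 fell, with a median of -0.21, and in the 20 longest 9 fell, with a median of -0.27. When each library's trend of log2 CPM on exon length was removed before the test, an alternative added after these values were seen, 21 of the 40 fell and 0 rose. Of all 19263 tested genes, 2855 fell and 3020 rose in that fit. AURKA, CDC20, UBE2C, CENPE, DLGAP5 and ASPM were gained and ECT2 was lost, while MKI67 and CENPF still did not pass.

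**Figure D3:**
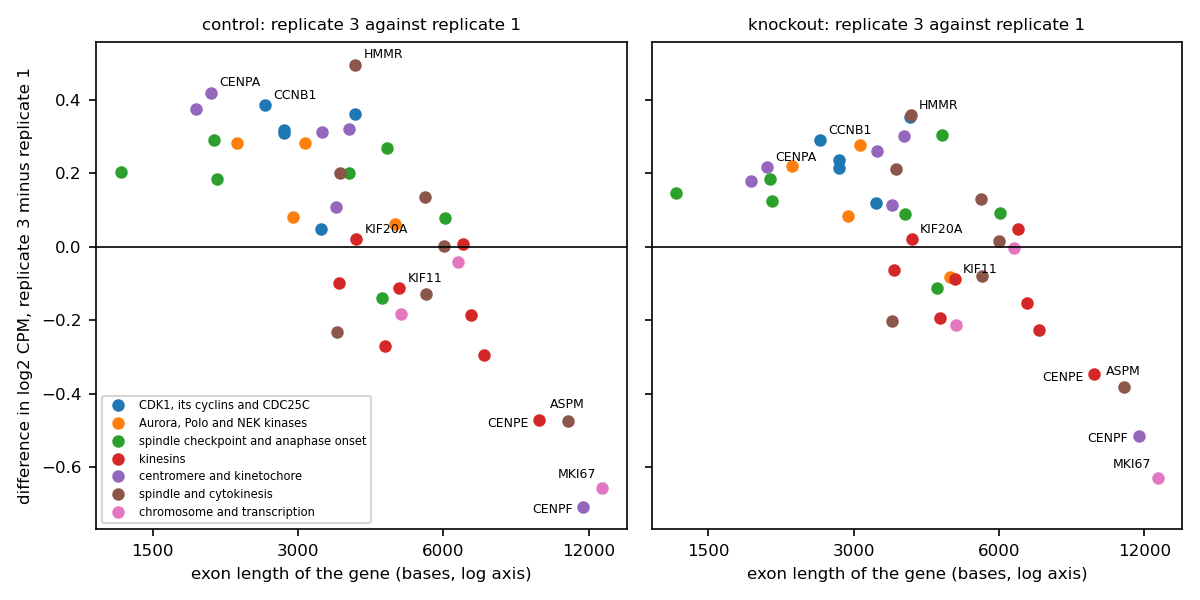
Difference in log2 CPM between replicate 3 and replicate 1 against the exon length of each of the 40 genes (log axis), in control (left) and knockout libraries (right), coloured by subgroup. MKI67, CENPF, ASPM and CENPE, the longest genes, lie lowest in both panels, and short genes such as CENPA and CCNB1 lie above 0.

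Other genes of mitosis, from lists drawn up in the same way, were set beside the 40. Of 66 further mitosis genes, 21 fell (31.8%) and 1 rose (1.52%), with a median log2 fold change of -0.16 and 60 values below 0 (90.9%). Of all tested genes 14.0% fell, 14.0% rose and 52.2% had values below 0. CKAP2L, a spindle-associated protein, fell from 106 ± 1.33 to 71.9 ± 1.24 CPM (log2 fold change -0.56, SE 0.05, adjusted p = 8.62e-05) and KIF22, the chromosome-arm motor Kid, from 69.7 ± 1.58 to 53.2 ± 0.645 CPM (log2 fold change -0.39, SE 0.06, adjusted p = 8.70e-04). SPDL1, the dynein adaptor Spindly at kinetochores, rose from 115 ± 3.96 to 142 ± 7.64 CPM (log2 fold change 0.30, SE 0.06, adjusted p = 0.00751), with an adjusted p of 0.0512 without control replicate 2. Of these 66 genes 8 fell without knockout replicate 2, 9 without control replicate 2 and 13 without control replicate 1. Over all tested genes 1794, 1811 and 2089 fell in those fits, against 2702 with all libraries. Of 21 condensin and cohesin genes 7 fell (33.3%) and 0 rose, with a median of -0.18, among them the cohesin subunit STAG2 (log2 fold change -0.35, adjusted p = 0.00562) and the cohesin regulator PDS5B (-0.37, adjusted p = 0.00697). That count was 2 to 4 without control replicate 1 or 2 or any 1 of the knockout libraries, 3 when scaled by total counts and 11 without control replicate 3. Of 18 genes of the anaphase promoting complex, 0 fell and 1, ANAPC13, rose (log2 fold change 0.29, SE 0.06, adjusted p = 0.00769), with a median of -0.01; without control replicate 2 ANAPC13 did not pass (adjusted p = 0.0503). At an unadjusted p under 0.05 edgeR gave 1 lower gene of that list, UBE2S, and 1 higher, ANAPC13, and DESeq2 called 0 lower.

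Of 21 CDK1 regulators and G2 checkpoint genes, 5 fell (23.8%) and 4 rose (19.0%), beside 14.0% and 14.0% of all tested genes. CDKN1A, which encodes p21, an inhibitor of CDKs, rose from 89.9 ± 3.81 to 182 ± 5.19 CPM (log2 fold change 1.02, SE 0.06, adjusted p = 4.28e-06), while CDK2, the kinase of S phase, fell from 125 ± 5.79 to 77.2 ± 1.69 CPM (log2 fold change -0.69, SE 0.06, adjusted p = 4.71e-05) and WEE1, which inhibits CDK1, fell from 45.8 ± 2.28 to 37.8 ± 2.37 CPM (log2 fold change -0.28, SE 0.07, adjusted p = 0.0205). The others called were named after their values were seen. GADD45A, GADD45B and ATR rose (log2 fold changes 0.47, 0.62 and 0.28, adjusted p = 5.57e-04, 0.00103 and 0.00778). CHEK2, CDC25A and CDKN1B fell (-0.41, -0.21 and -0.22, adjusted p = 0.0256, 0.0310 and 0.0427). The count of 5 lower was 1 to 3 when any 1 library but control replicate 3 was left out and 2 when scaled by total counts. WEE1 lost its call in 5 fits (adjusted p up to 0.0969). Among 19 MuvB, DREAM and B-MYB factors, 4 fell (21.1%) and 2 rose (10.5%), beside the same 14.0% and 14.0% of all tested genes. Whether either list differs from all tested genes was not tested. MYBL2, the gene of B-MYB, fell from 158 ± 8.35 to 107 ± 4.06 CPM (log2 fold change -0.57, SE 0.06, adjusted p = 2.33e-04) and its relative MYBL1 rose from 37.6 ± 1.66 to 58.2 ± 1.51 CPM (log2 fold change 0.63, SE 0.06, adjusted p = 9.64e-05). The atypical E2F gene E2F8 fell from 16.7 ± 0.639 to 10.7 ± 1.17 CPM (log2 fold change -0.64, SE 0.09, adjusted p = 9.51e-04), and the other atypical E2F gene, E2F7, named after its values were seen, rose from 60.8 ± 8.24 to 117 ± 12.3 CPM (log2 fold change 0.94, SE 0.11, adjusted p = 3.28e-04).

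DNA replication and G1/S genes, the neighbouring phase of the cycle, were lower too. Of 41, 25 fell (61.0%, against 14.0% of all tested genes) and 0 rose. Their median was -0.30, beside 16 of 40 lower and -0.24 for the mitotic genes. Whether the mitotic and replication genes differ was not tested. Without knockout replicate 2 the count for replication genes was 16. E2F2 (log2 fold change -0.78) and TYMS (-0.68) had the smallest p of that list. Promoter windows of the replication genes held a CHR match in 2 of 35 (5.71%) and an E2F site (TTTGGCGC, TTTCCCGC, TTTCGCGC or TTTGCCGC, either strand) in 20 of 35 (57.1%). The mitotic genes held the E2F letters in 2 of 34 (5.88%), and tested genes with a window in 6.39%. The 66 further mitosis genes had a window for 53, of which 36 held CHR (67.9%).

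**Figure D4:**
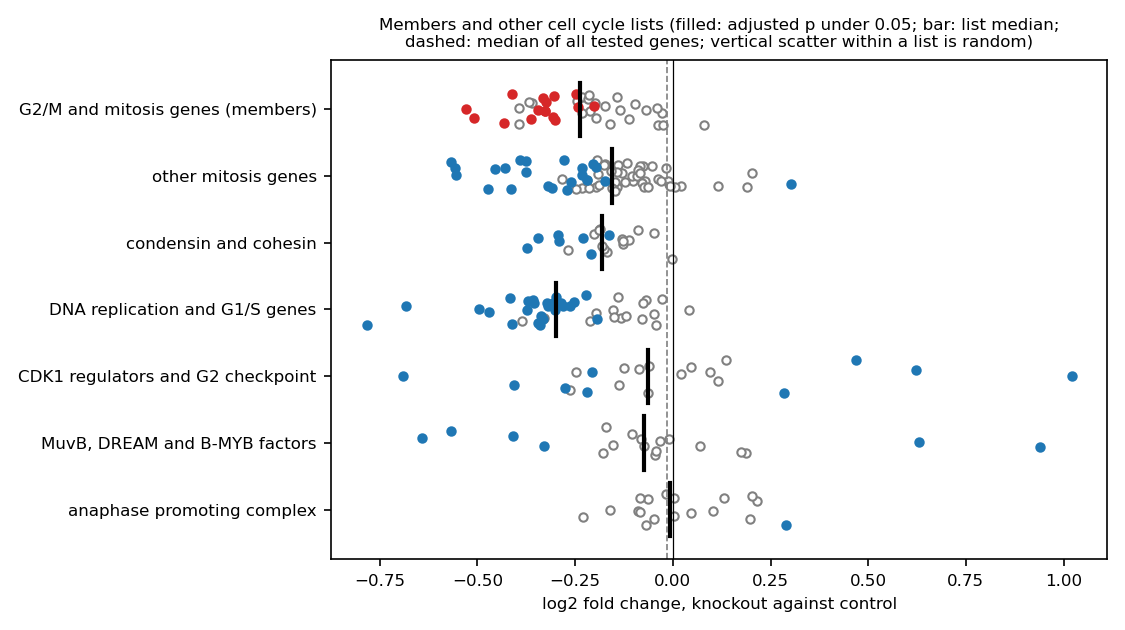
Log2 fold change of each gene in the mitotic set and in 6 other cell cycle lists; filled points passed an adjusted p of 0.05 and bars are list medians. The mitotic genes have a median of -0.24 and replication genes -0.30, whereas the anaphase promoting complex has -0.01, close to the median of all tested genes.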

How the data were processed

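Per the labels' protocols, total RNA was isolated with an RNeasy Plus kit and turned into libraries with the KAPA kit for stranded mRNA sequencing. HISAT2, HTSeq and hg38 are named per the submitters' processing notes, without versions, strand setting or annotation release. The deposited values are raw counts of reads per gene. All 58721 identifiers were in GENCODE 29 (GRCh38), the source of coordinates and exon lengths, and 58207 had a symbol.

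The main test was edgeR 4.0.16 under R 4.3.3 (filterByExpr, TMM, two-sided quasi-likelihood test without covariates, Benjamini-Hochberg adjustment over 19263 genes, threshold 0.05). Values are means ± SD over n = 3. Intervals are 95% and cover the spread between these libraries only. Genes and lists were chosen with earlier results of these data known. The named genes were SOX10, and up to 3 genes with the smallest p and the 1 with the largest p of each of 7 subgroups. From 6 other lists genes were chosen by p and direction, and some more were named after their values were seen. The other mitotic genes are given with their fold change and p only, or were named after their values were seen (CENPF, CENPE and KIF20B). On simulated counts of 18919 genes the test called 21 of 50 genes changed 1.5-fold and 7 of 50 changed 1.3-fold. In that simulation 200 genes were changed, whereas 5396 of 19263 tested genes were called in the data. The simulated shares therefore do not give the power of the test for the mitotic genes. Alternatives were DESeq2 1.42.0, limma-voom (limma 3.58.1), other scalings and filters, a replicate block, leaving out each library, and removal of a length trend (added after seeing the data). Python 3.11.15 (pandas 2.3.3, scipy 1.17.1, matplotlib 3.10.9) made the tables and figures. One marker gene, and the summed level of its list, are not reported here.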

Additional observations from a re-analysis of the deposited data

How the results depend on the processing

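Each fit other than the replicate block gave 0 higher mitotic genes. Without 1 library the number lower ranged from 6 to 19 (main 16), that of all genes lower from 1794 to 2958 and higher from 1986 to 2935, and the median of the 40 genes from -0.26 to -0.22. Subgroup medians ranged from -0.29 to -0.10 for CDK1 and cyclins, -0.19 to -0.10 for Aurora, Polo and NEK kinases, -0.23 to -0.15 for the checkpoint, -0.40 to -0.25 for kinesins, -0.35 to -0.27 for centromere and kinetochore, -0.29 to -0.17 for spindle and cytokinesis and -0.26 to -0.22 for chromosome and transcription. Scaled by total counts the median was -0.20, 12 genes fell, the median of all tested genes was 0.03, 58.5% of calls were higher (49.9% with TMM), and NEK2 (0.0183), TTK (0.000701), SGO1 (0.0161) and KIF23 (0.00315) turned positive without a call. Without control replicate 3, CDK1 (0.0139), NEK2 (0.0620), TTK (0.0459) and SGO1 (0.0346) did so, without knockout replicate 1 NEK2 (0.0522), TTK (0.0431) and SGO1 (0.00458), and with the length trend removed KIF23 (0.000456). Their lowest values without 1 library were -0.189 for CDK1, -0.0932 for NEK2, -0.116 for TTK and -0.0592 for SGO1, and the cause was not tested. SOX10 stayed between -2.40 and -2.30 without 1 library.

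Same-numbered libraries had deviation correlations of 0.30, -0.0044 and 0.31, and not every library correlated best with its own number. Replicates 1 and 3 each correlated best with their own number, and replicate 2 did not. The numbers were therefore not taken to pair the samples, but this check cannot exclude that they do. Control replicate 3 with knockout replicate 1 had -0.33, and control replicate 1 with knockout replicate 3 had -0.28. Over the 40 genes the differences of replicates 3 and 1 had r = 0.97 between groups. The main test had no replicate term, so differences shared by number count as spread in it. With the replicate block, 35 of the 40 genes fell and 1, KIF20B, rose, and 5176 of all genes were lower and 4637 higher. MKI67, CENPF, CCNB1 and CDK1 were among the genes called lower there but not in the main test. Depth set no floor here, since the lowest count of the 40 genes in a library was 591.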
